A study of Citrus sinensis with 4 samples.

Results

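The abundant, steadily expressed genes of sweet orange endocarp described here are 237 of the 29036 gene models measured. They were chosen on their own levels in the 4 libraries of the study. A gene was a member where its level, given throughout as counts per 1000000 counted fragments (CPM) plus 0.5, was at least 300 in every library and its highest level was under 2 times its lowest. Gene models with identifiers of the form Cs or orange1.1t could be members, apart from 1 model that the rule left out by name. Of 317 genes that reached 300 in all 4 libraries, 237 kept within the 2-fold range (74.8%) and 80 did not. The same range was kept by 61.8% of the 17504 genes that had at least 10 fragments in a library. The floor in every library leaves out abundant genes that fell below it. By mean level alone the share was 66.4% at 300 to 1000 and 34.8% at 1000 and over. Because the levels in the 4 libraries chose the members, they are given as a description and no test is made on them.

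The RNA came from endocarp of the sweet orange (Citrus sinensis) cultivars Dahongtiancheng and Bingtangcheng, each at 70 and at 50 days after full bloom, with no treatment named. Each combination of cultivar and stage was represented by 1 poly(A) library, so no group had replicates and all counting intervals below compare libraries, not fruits or trees. The labels do not say how many fruits or trees went into a library. The labelled tissue could not be checked against marker genes, because the files pair no identifier with a gene name or description.

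Endocarp is the inner layer of the citrus fruit wall, from which the juice sacs grow, and in young fruit its cells pass from division to expansion while sugars and organic acids build up in their vacuoles. In most plant tissues the abundant messages of constant level come from genes of basic upkeep, such as those for protein synthesis, protein turnover, the cytoskeleton and energy metabolism. Genes of this kind serve as internal references when the expression of other genes is measured, and their value as a reference depends on how steady they are and on the scale used to judge it. The files do not say which of these functions the members have, so the genes are described by identifier, position, length and level. For the same reason no member is given a role and no sequence is shown.

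The total count was 16192148 (Dahongtiancheng) and 16445383 (Bingtangcheng) in the 70-day libraries, and 16253052 and 14040916 in the 50-day ones. A member never had fewer than 4243 fragments in a library, and the highest count was 120494. At this depth the 95% counting interval of a member's highest-to-lowest ratio spread by 3.19% to either side at the median member and by 4.11% at most. Such intervals cover counting error only. Together the members took up 15.7% (Dahongtiancheng) and 16.7% (Bingtangcheng) of all fragments in the 70-day libraries, against 15.4% and 14.4% in the 50-day ones (the exact 95% binomial intervals were 15.7 to 15.7, 16.7 to 16.8, 15.4 to 15.4 and 14.4 to 14.4). The 80 other abundant genes held 11.2% and 11.7% at 70 days and 8.61% and 7.62% at 50 days.

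The members covered a broad span of levels. The mean level over the 4 libraries ran from 321 to 4986 with a median of 508.2, and 23 members exceeded 1000 while 109 were under 500. The median level was 512 and 549 at 70 days in Dahongtiancheng and Bingtangcheng, against 517 and 480 at 50 days. Members made up between 41 and 51 of the 100 most abundant genes of a library, and between 1 and 4 of the 10 most abundant. The other abundant genes had a median mean level of 923, and 38 of the 80 exceeded 1000.

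The most abundant member was Cs2g03110 (chromosome 2, 1358134 to 1359614, plus strand), the gene with most fragments of all in the 50-day Bingtangcheng library. At 70 days its level was 4249 in Dahongtiancheng and 7327 in Bingtangcheng, against 4132 and 4234 at 50 days. The libraries other than 70-day Bingtangcheng thus lay close together, and that library alone was higher. The ratio of 70 over 50 days was 0.04 on the log2 scale in Dahongtiancheng and 0.79 in Bingtangcheng.

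Next came orange1.1t01755 (unplaced sequence, 27983314 to 27986157, plus strand) and Cs4g06850 (chromosome 4, 4313661 to 4318490, plus strand), both lower at 70 days on this scale. The level of orange1.1t01755 was 2376 and 2587 at 70 days in Dahongtiancheng and Bingtangcheng, and 4126 and 3409 at 50 days. Cs4g06850 had levels of 2055 and 2483 at 70 days and 3196 and 3017 at 50 days. In both genes the stages did not overlap, and the stage difference was smaller in Bingtangcheng. With libraries scaled by TMM (trimmed mean of M values), the log2 stage ratio of Cs4g06850 in Bingtangcheng was 0.01 in place of -0.28, so its direction there depended on the scale.

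Cs6g10280 (chromosome 6, 11868381 to 11870966, minus strand) went the other way. Its level was 3396 and 3365 at 70 days in Dahongtiancheng and Bingtangcheng, and 2053 and 1751 at 50 days. The 70-day level was 1.65-fold the 50-day level in Dahongtiancheng (95% counting interval 1.63 to 1.68) and 1.92-fold in Bingtangcheng (1.89 to 1.95). Cs1g05000 (chromosome 1, 4539068 to 4541806, minus strand) had, with total counts, the smallest range of the 6 most abundant members, 1.25-fold, with levels of 2411 and 2959 at 70 days and 2589 and 2376 at 50 days. With TMM its range was 1.52-fold, wider than that of Cs4g06850 (1.35-fold). Cs5g03460 (chromosome 5, 1805590 to 1807466, minus strand) completed these 6, with 2315 and 2625 at 70 days and 1764 and 1330 at 50 days.

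**Figure D1:**
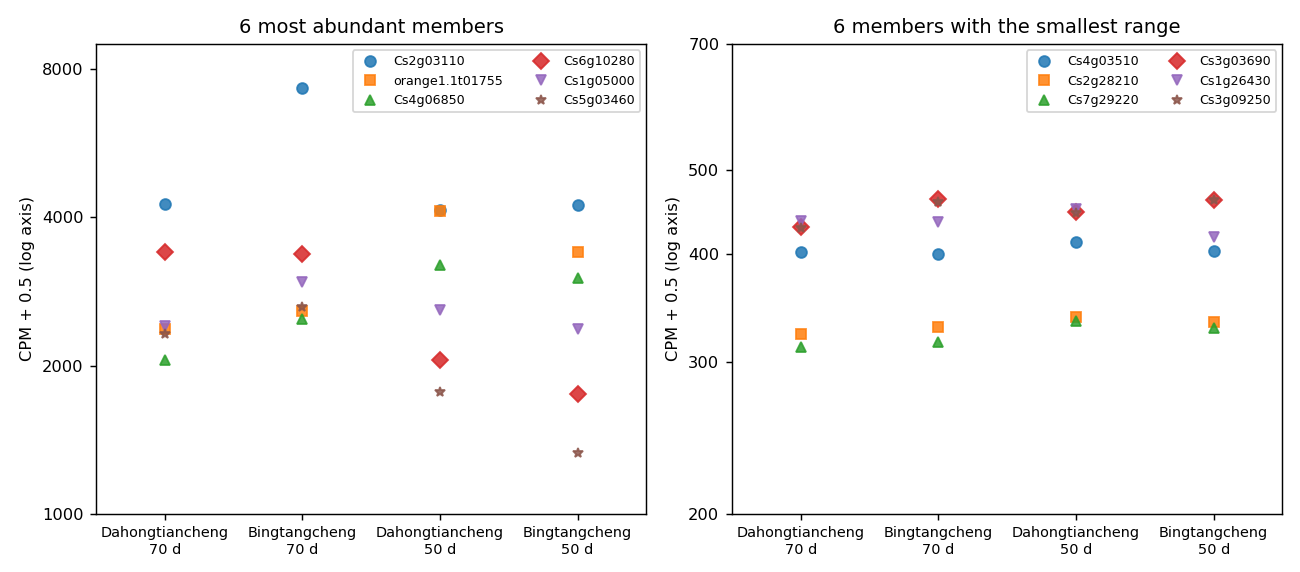
Level (CPM + 0.5, log axis) of the 6 most abundant members (left) and of the 6 members with the smallest range (right) in each of the 4 libraries, 1 point per library. Cs2g03110 stands at 7327 in 70-day Bingtangcheng and between 4132 and 4249 in the other libraries, while each gene on the right keeps within 1.08-fold.

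With total counts, the steadiest members varied by little more than counting error. Their ranges were wider with TMM, as given below. The smallest range belonged to Cs4g03510 (chromosome 4, 1816481 to 1821591, minus strand), with levels of 402 and 400 at 70 days in Dahongtiancheng and Bingtangcheng and 413 and 403 at 50 days. Its highest level was 1.03-fold its lowest (95% counting interval 0.999 to 1.07). In the other 236 members the interval of the range lay above 1. Cs2g28210 (chromosome 2, 27873637 to 27877411, plus strand) followed at 1.05-fold, with levels of 323 and 329 at 70 days and 338 and 333 at 50 days. Cs7g29220 (chromosome 7, 29561419 to 29564667, plus strand) had a range of 1.07-fold, and Cs3g03690 and Cs3g09250 (chromosome 3) and Cs1g26430 (chromosome 1) had ranges of 1.08-fold.

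All 6 of these genes had mean levels of 450.4 or less, and so did the 10 members with a range under 1.1-fold. A gene with a mean near 300 that never goes below 300 has little room to vary. Among members with means up to 437, however, the largest range was 1.96-fold. Whether the floor bears on the low levels of the steadiest members was not tested. Among equal groups of 79 members, the median range was 1.27-fold in the lowest levels (means up to 437), 1.41-fold in the middle and 1.55-fold in the highest (means of 659 and over). Without the floor, the share of Cs and orange1.1t genes within 2-fold was 41.3% at mean levels of 1 to 10, 71.5% at 10 to 50, 80.2% at 50 to 100 and 78.2% at 100 to 300. It was 66.4% of 447 genes at 300 to 1000 and 34.8% of 66 genes at 1000 and over, where 23 genes kept within the range.

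Over all members the median range was 1.41-fold (quartiles 1.26 and 1.602), against 2.42-fold (2.17 and 2.83) in the other abundant genes, a difference that the rule fixes. A range under 1.1-fold was kept by 10 members, and one of 1.1 to 1.2 by 27. Ranges of 1.2 to 1.4, 1.4 to 1.6, 1.6 to 1.8 and 1.8 to 2 were found for 79, 60, 39 and 22 members. The interval of the range reached 2 or more in 6 members, whose place inside the limit is within counting error.

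**Figure D2:**
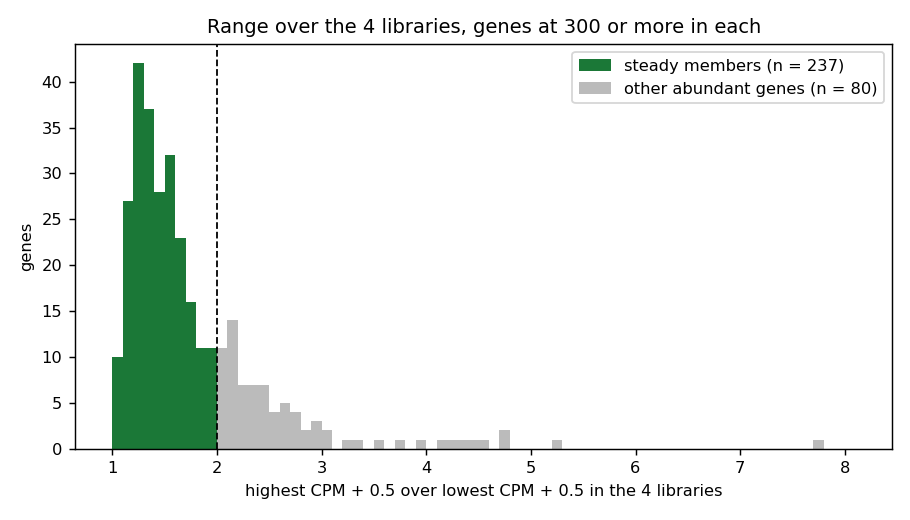
Number of genes by highest-to-lowest ratio of CPM + 0.5 over the 4 libraries, for the 237 members and the 80 other abundant genes, with the limit of 2 as a dashed line. The members crowd between 1.1 and 1.8, and the counts fall off through the limit with no gap at 2.

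The limit cuts through a continuous distribution. Just inside it lay Cs5g03460 and Cs9g14320 at 1.97-fold and Cs4g02520 at 1.96-fold, and just outside it Cs3g25410 at 2.004-fold, Cs2g27470 at 2.01-fold and Cs3g15060 at 2.02-fold. At the floor, the lowest level was 302.6 in Cs5g28880, 302.7 in Cs8g03630 and 303 in orange1.1t02860. It was 299 in each of Cs5g15160, Cs6g16540 and Cs2g09620, which kept within 2-fold and missed the floor in a single library. In all, 436 genes reached 300 in some but not all libraries, and 185 of them kept within the 2-fold range.

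The stage comparison asked how the members stood at 70 days relative to 50 days. In Dahongtiancheng 27 members were at least 1.5-fold higher at 70 days, and 19 were at least 1.5-fold lower. Among the 17021 genes with at least 10 fragments in either library of that pair, 13.1% were higher and 27.9% lower by the same measure. In Bingtangcheng 27 members were at least 1.5-fold higher and 3 lower, against 9.52% and 32.1% of 16907 genes. The rule used these ratios, so the members' counts are read no further against these shares. The median log2 ratio of 70 over 50 days over the members was 0.04 in Dahongtiancheng (from -0.98 to 0.97) and 0.18 in Bingtangcheng (from -0.88 to 0.98).

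Most of the small differences that remained ran along the stages. Both 70-day libraries lay above both 50-day libraries in 100 members (42.2%) and below them in 49 (20.7%). Of all 17504 genes with at least 10 fragments in a library, 15.8% lay above and 46.7% below in this way. Separation by stage was thus common among all genes and not particular to the members. Both Dahongtiancheng libraries lay above both Bingtangcheng libraries in 20 members (8.44%) and below them in 15 (6.33%), against 8.83% and 9.08% of all genes. In the other 53 members neither stages nor cultivars separated. When the squared log2 differences of each gene were split into a stage part, a cultivar part and a crossed part (a stage difference that is unlike in the cultivars), the stage part was 61.6% of the sum over the members. The cultivar part was 17.6% and the crossed part 20.8%. With TMM the stage, cultivar and crossed parts were 73.5%, 11.1% and 15.4%. In the other abundant genes the stage part was 78.3%, and 81.0% with TMM.

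Examples of each pattern were picked after the values were seen, as the members with the largest part of that kind. Cs5g33470 (chromosome 5, 34509176 to 34515751, minus strand) had a 70-day level of 1078 in Dahongtiancheng and 1079 in Bingtangcheng, and a 50-day level of 559 and 551. With total counts the cultivars were alike in it within counting error at each stage. The 70-day level was then 1.93-fold (1.88 to 1.98) and 1.96-fold (1.91 to 2.01) the 50-day level. With TMM its log2 stage ratios were 1.15 and 1.26, beyond the 2-fold limit. The log2 ratio of Dahongtiancheng over Bingtangcheng was then -0.03 at 70 days and 0.07 at 50 days. Cs6g06160 (chromosome 6, 7829214 to 7831865, minus strand) showed the opposite order, with 324 and 333 at 70 days and 490 and 613 at 50 days. Its log2 stage ratio was -0.60 in Dahongtiancheng and -0.88 in Bingtangcheng.

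The cultivar pattern was clearest in Cs6g08320 (chromosome 6, 10287871 to 10291691, minus strand). At 70 days its level was 953 in Dahongtiancheng against 502 in Bingtangcheng, and at 50 days 789 against 573. Dahongtiancheng was thus 1.90-fold (1.85 to 1.95) and 1.38-fold (1.34 to 1.42) above Bingtangcheng. Cs7g04210 (chromosome 7, 2102912 to 2106393, plus strand) was lower in Dahongtiancheng, with 348 against 532 at 70 days and 325 against 369 at 50 days. A gene model on the other strand overlaps Cs7g04210, so fragments of both may be mixed in its count.

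In the cultivar comparison, 4 members were at least 1.5-fold higher in Dahongtiancheng at 70 days and 19 lower, against 15.2% and 12.7% of 16592 genes. At 50 days 1 member was higher and 0 were lower, against 5.95% and 9.32% of 16993 genes. With TMM and with median-of-ratios scaling 5 members were higher and 0 lower at 50 days, against 6.44% and 8.18% of genes with TMM. The median log2 ratio of Dahongtiancheng over Bingtangcheng was -0.06 at 70 days and 0.08 at 50 days over the members, with a standard deviation over members of 0.33 at 70 days and 0.18 at 50 days. The same narrower spread at 50 days was found in the other abundant genes (0.69 at 70 days and 0.33 at 50 days) and in all genes of these pairs (0.76 and 0.54). The counting interval of this ratio included 1 for 29 members at 70 days and 43 at 50 days.

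Stage ratios that ran opposite ways in the cultivars were uneven in direction. The rule used these ratios, so the counts below are a description and are read no further against the shares beside them. Counting only ratios whose 95% interval left out 1, 110 members were higher at 70 days in both cultivars and 49 lower in both. Another 48 members were lower at 70 days in Dahongtiancheng and higher in Bingtangcheng, and 5 showed the reverse. These are not the same set as the 53 members without separated stages or cultivars. Cs6g08320, for example, is among the 5 though its cultivars separated. In the same order the shares were 11.3%, 33.6%, 3.29% and 5.18% of all 17504 genes, many of which have wider intervals, and the counts were 50, 19, 6 and 3 of the 80 other abundant genes. With TMM scaling the 4 counts of members were 156, 15, 38 and 2, against 20.3%, 20.1%, 4.79% and 4.15% of all genes. In the 80 other abundant genes they were then 55, 18, 6 and 0. Relative to Bingtangcheng, 71 members were lower in Dahongtiancheng at 70 days and higher at 50 days, and 19 the reverse, against 5.7% and 7.88% of all genes and 27 and 12 of the other abundant genes. With TMM these were 88 and 11 members, against 8.14% and 5.86% of all genes and 32 and 6 of the other abundant genes. Dahongtiancheng was higher at both stages in 54 members and lower at both in 31, against 5.63% and 8.49% of all genes. Of the 80 other abundant genes, 23 were higher at both stages and 8 lower at both. With TMM the member counts were 58 and 18, against 6.69% and 6.83% of all genes and 26 and 8 of the other abundant genes.

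Cs9g14320 (chromosome 9, 13716490 to 13766138, plus strand) had the strongest crossed difference in that direction. At 70 days its level was 616 in Dahongtiancheng and 1050 in Bingtangcheng, against 1212 and 809 at 50 days. The highest level was in 50-day Dahongtiancheng and the lowest in 70-day Dahongtiancheng. Models on the other strand overlap this gene too. Cs1g10540 (chromosome 1, 12678289 to 12680964, minus strand) was similar, with 563 and 874 at 70 days and 935 and 619 at 50 days. Cs4g07280 (chromosome 4, 4619341 to 4631434, minus strand) went the other way, with 606 and 342 at 70 days and 314 and 470 at 50 days. A model on the same strand overlaps it.

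**Figure D3:**
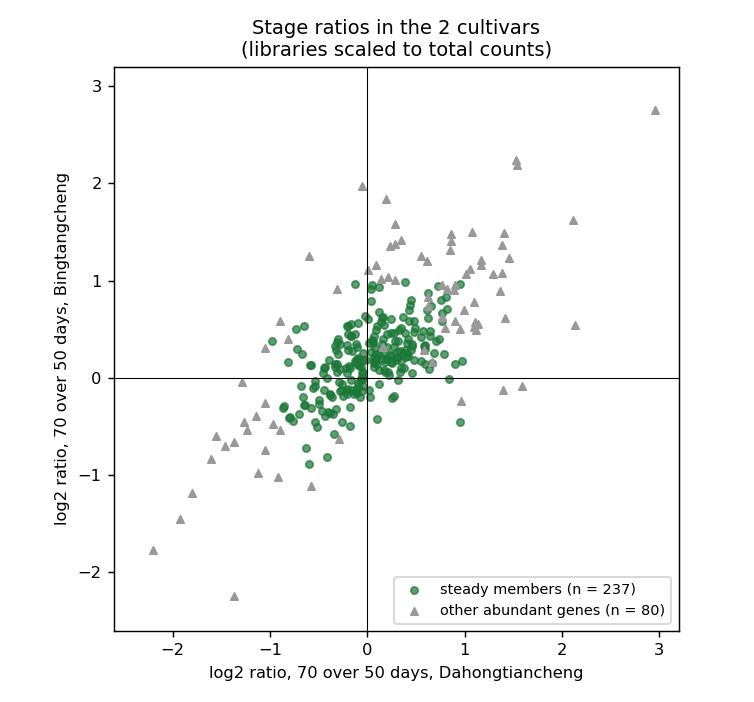
Log2 ratio of 70 over 50 days in Dahongtiancheng (horizontal) and Bingtangcheng (vertical) for the 237 members and the 80 other abundant genes, with libraries scaled to total counts. The members are confined to -1 to 1 on each axis by the rule, and more of them lie in the upper left (lower in Dahongtiancheng, higher in Bingtangcheng) than in the lower right.

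By library, the extremes of the members were not evenly placed. The highest level was in 70-day Dahongtiancheng for 76 members, in 70-day Bingtangcheng for 83, in 50-day Dahongtiancheng for 50 and in 50-day Bingtangcheng for 28. In the same order, these libraries were highest for 22.3%, 14.3%, 23.2% and 40.2% of all 17504 genes. The lowest level was in 70-day Dahongtiancheng for 83, in 70-day Bingtangcheng for 22, in 50-day Dahongtiancheng for 37 and in 50-day Bingtangcheng for 95. In the other abundant genes 70-day Bingtangcheng was likewise the lowest library least often, in 6 of 80, and 50-day Bingtangcheng the lowest most often, in 41. Over all 17504 genes the lowest level was in 70-day Dahongtiancheng for 37.2%, in 70-day Bingtangcheng for 34.8%, in 50-day Dahongtiancheng for 13.9% and in 50-day Bingtangcheng for 14.1%. These counts depend on the scale. With TMM 50-day Bingtangcheng was lowest in 155 members and 70-day Dahongtiancheng in 42, against 24.6% and 31.8% of all genes. In the other abundant genes these were 46 and 18 of 80. The highest level was then in 70-day Dahongtiancheng for 79 members, 70-day Bingtangcheng for 127, 50-day Dahongtiancheng for 21 and 50-day Bingtangcheng for 10. In that order these libraries were highest for 29.3%, 24.7%, 19.8% and 26.2% of all genes with TMM.

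How steady the members are depended on the scale on which libraries are compared. Scaled to total counts, the median log2 ratio of 70 over 50 days over all genes of the pair was -0.20 in Dahongtiancheng and -0.29 in Bingtangcheng, below that of the members. TMM scaling, which brings the median of all genes to -0.004 and -0.02, put the members' median at 0.24 in Dahongtiancheng and 0.47 in Bingtangcheng. On that scale 50 members were at least 1.5-fold higher and 6 lower at 70 days in Dahongtiancheng, against 18.1% and 21.2% of all genes of that pair. In Bingtangcheng 83 members were higher and 1 lower, against 15.5% and 21.7%. Both 70-day libraries then lay above both 50-day libraries in 159 members and below them in 14, against 28.6% and 30.7% of all 17504 genes. In the deposited FPKM values (fragments scaled to gene length and library) the members' medians were 0.25 and 0.51. At the median, the members were thus near level as shares of all fragments, and higher at 70 days relative to the median of all genes. The other abundant genes lay further above it, with medians of 0.62 and 0.72 with total counts and 0.82 and 1.01 with TMM. The cultivar ratios moved less, to -0.09 at 70 days and 0.13 at 50 days with TMM.

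**Figure D4:**
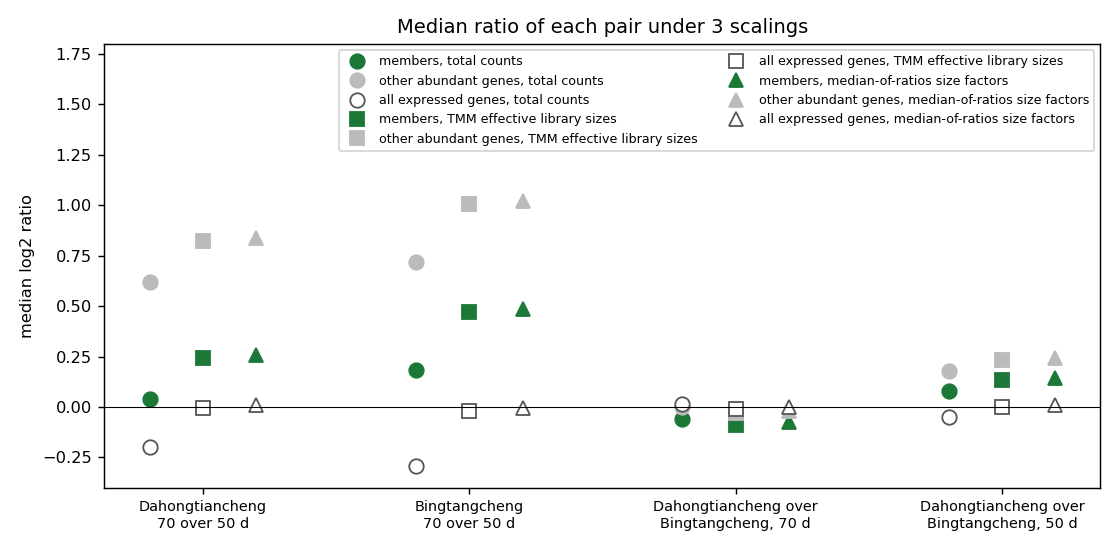
Median log2 ratio of each pair of libraries for the 237 members (green), the 80 other abundant genes (grey) and all genes with at least 10 fragments in the pair (open), under total-count (circles), TMM (squares) and median-of-ratios (triangles) scaling. In both stage pairs and under each of the 3 scalings the members lie above all genes and below the other abundant genes, at 0.18 against -0.29 in Bingtangcheng with total counts and 0.47 against -0.02 with TMM.

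With TMM the range reached 2-fold or more in 28 members and the lowest level went under 300 in 25. The rule then chose 209 genes, of which 188 were members. Of the 237 members, 181 met the rule with total counts, TMM and median-of-ratios scaling, and 176 also kept within 2-fold in FPKM. Of the 6 most abundant members, Cs2g03110, Cs6g10280 and Cs5g03460 left the range with TMM, at 2.11-fold, 2.34-fold and 2.41-fold. In the same set orange1.1t01755 and Cs4g06850 narrowed to 1.51-fold and 1.35-fold. Other members named above also left the range with TMM. Cs4g02520 reached 2.26-fold, and Cs5g33470 had log2 stage ratios of 1.15 in Dahongtiancheng and 1.26 in Bingtangcheng. In Cs4g07280 the log2 stage ratio was 1.16 in Dahongtiancheng. The 10 members with a range under 1.1-fold had ranges of 1.18 to 1.32 with TMM, and Cs4g03510 reached 1.21-fold.

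Few members were very steady on every scale. Taking the largest range over total-count, TMM and median-of-ratios scaling, 8 members kept under 1.2-fold and 0 under 1.1-fold. The smallest such value, picked after the data were seen, was that of Cs5g25090 (chromosome 5, 27918276 to 27923852, minus strand) at 1.13-fold. Its level was 662 and 668 at 70 days in Dahongtiancheng and Bingtangcheng and 736 and 727 at 50 days. With TMM it was 714 and 734 at 70 days and 688 and 655 at 50 days, so the order of the stages turned with the scale. Cs4g08790 (chromosome 4, 5790147 to 5796760, minus strand) and orange1.1t02606 (unplaced sequence, 39760777 to 39762948, plus strand) followed, both at 1.17-fold.

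Steadiness was also read in libraries that took no part in the choice. The rule was applied to 3 libraries at a time, and the library left out was compared with the geometric mean of those 3. Genes chosen without 70-day Dahongtiancheng were within 1.5-fold of that mean in it in 232 of 318 cases (73.0%), compared with 18 of 50 genes (36.0%) that were abundant but not steady in the other libraries. For 70-day Bingtangcheng the numbers were 234 of 266 (88.0%) and 38 of 61 (62.3%). For 50-day Dahongtiancheng they were 238 of 247 (96.4%) and 44 of 77 (57.1%), and for 50-day Bingtangcheng 241 of 287 (84.0%) and 22 of 62 (35.5%). The sets compared were not alike in abundance: the median level over the 3 libraries lay between 491 and 519 in the steady sets and between 803 and 911 in the others. Among genes with a mean under 1000, a limit chosen after seeing the data, the shares were 74.6% and 38.7% in 70-day Dahongtiancheng, 89.5% and 61.5% in 70-day Bingtangcheng, 96.0% and 65.2% in 50-day Dahongtiancheng, and 86.9% and 34.2% in 50-day Bingtangcheng. The levels of these sets still differed. The comparison genes differed by 2-fold or more within the 3 libraries, so a stage difference alone can place them beyond 1.5-fold of that mean. The contrast is therefore partly set by the choice and is no independent measure of steadiness. The 4 cases share libraries, and the counts are a description with no test.

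The full rule was also read in the library left out. Of the genes chosen without it, 237 of 318 kept to the rule in 70-day Dahongtiancheng (74.5%), and 57 of the 81 that did not were below the mean of the others. The share was 89.1% in 70-day Bingtangcheng, 96.0% in 50-day Dahongtiancheng and 82.6% in 50-day Bingtangcheng. In 50-day Bingtangcheng 48 of the 50 lost genes were below. The genes that kept to the rule are the 237 members in every case. The level was under the floor of 300 in 44 of the 81 genes lost in 70-day Dahongtiancheng and in 25 of the 50 lost in 50-day Bingtangcheng.

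**Figure D5:**
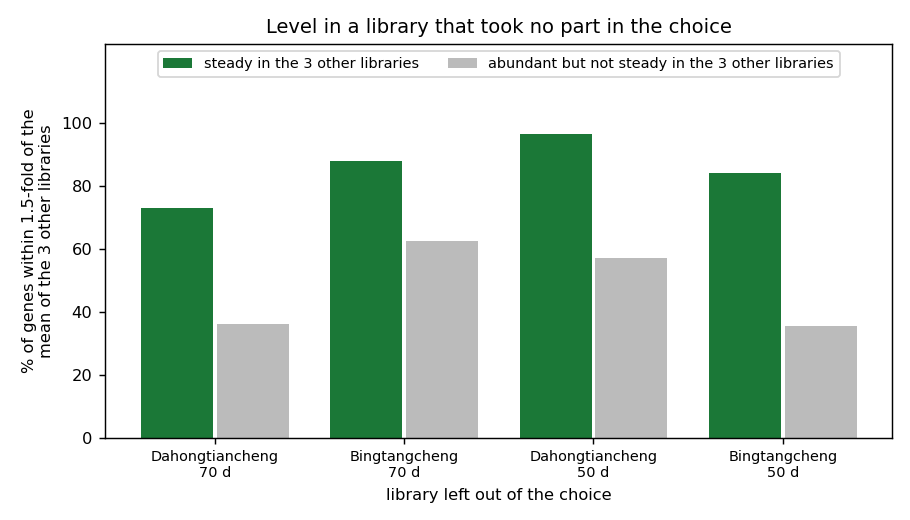
Percentage of genes whose level in the library left out is within 1.5-fold of their geometric mean in the 3 other libraries, for genes that met the rule in those 3 and for genes that reached 300 in those 3 but not the 2-fold range. Genes steady in those 3 read 73.0% to 96.4%, and the rest 35.5% to 62.3%, a contrast that the choice itself partly sets.

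Gene length, which the rule did not use directly, was greater among the members. The median length given in the files was 2158 bases in the members (quartiles 1322 and 3159), 1560.5 in the other abundant genes and 1562 in all genes with at least 10 fragments in a library. Members over 5000 bases numbered 23 (9.70%), compared with 1 of the 80 other abundant genes and 2.25% of all genes. CPM values, on which the floor was set, are not corrected for length, and whether this bears on the difference was not tested. The longest members were Cs6g19770 (chromosome 6, 15366 bases), Cs1g25300 (chromosome 1, 12238 bases) and Cs4g08600 (chromosome 4, 11936 bases). Each had its highest level in 70-day Dahongtiancheng and its lowest in 50-day Bingtangcheng, for example 940 and 720 at 70 days and 575 and 554 at 50 days in Cs4g08600. With total counts the ranges of these 3 genes lay between 1.38-fold and 1.70-fold. With TMM they were 1.94-fold in Cs6g19770, 1.66-fold in Cs1g25300 and 2.03-fold, beyond the limit, in Cs4g08600.

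The shortest members were Cs5g27060 (chromosome 5, 408 bases), Cs3g18550 (chromosome 3, 480 bases) and Cs1g01370 (chromosome 1, 540 bases). Cs5g27060 had levels of 497 and 592 at 70 days in Dahongtiancheng and Bingtangcheng and 419 and 431 at 50 days. Cs3g18550 was crossed, with 512 and 867 at 70 days and 804 and 597 at 50 days. Across equal groups of 79 members by length, the median range was 1.45-fold in the shortest, 1.37-fold in the middle and 1.396-fold in the longest.

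Per length, the order of the members changed. In the deposited FPKM the members ran from 24.2 to 9724, with medians of 324 and 379 at 70 days in Dahongtiancheng and Bingtangcheng and 289 and 271 at 50 days. The other abundant genes had higher medians, 926 and 1169 at 70 days and 811 and 607 at 50 days. Cs2g03110 led on both measures, with 5504 and 9724 FPKM at 70 days and 4642 and 4512 at 50 days. Cs1g24740 (625 bases), only number 46 of the members by level, was number 3 per length, with 4120 and 4481 FPKM at 70 days and 2970 and 2382 at 50 days. Cs3g18550 was number 69 by level and number 4 per length.

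The members were spread over the genome. All 9 numbered chromosomes held between 16 (chromosome 9) and 31 members (chromosome 5), and 21 lay on unplaced sequence. As a share of genes with at least 10 fragments in a library, this was 0.909% on chromosome 2, 1.94% on chromosome 6 and 0.824% on unplaced sequence. Of the members 216 had identifiers of the form Cs and 21 of the form orange1.1t. No Citrus_newGene model could be a member by the rule, and none would have been, since the highest value that such a model kept in all libraries was 236. The plus strand carried 123 members and the minus strand 114.

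Between members next in order on the numbered chromosomes the median gap was 554 kilobases, and 4 of 207 such pairs had no other gene model between them. The same count was not made for other genes, so it is read no further. The closest pair was Cs1g16550 (chromosome 1, 19879082 to 19882470) and Cs1g16560 (19886673 to 19889877), both on the plus strand and 4202 bases apart. Their patterns differed. Cs1g16550 had levels of 906 and 1130 at 70 days in Dahongtiancheng and Bingtangcheng and 1177 and 1264 at 50 days, and thus lay lower at 70 days, though with TMM this held in Dahongtiancheng alone (log2 stage ratio -0.17, against 0.12 in Bingtangcheng). Cs1g16560 had 512 and 472 at 70 days and 401 and 330.5 at 50 days, and thus lay higher.

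The next closest pair, Cs8g08320 and Cs8g08330 on chromosome 8, lay on opposite strands 4393 bases apart. Cs8g08320 had levels of 365 and 382 at 70 days and 375 and 337 at 50 days, with the stages overlapping. In Cs8g08330 the stages did not overlap, with 467 and 488 at 70 days and 335 and 352 at 50 days. The span of 17 of the 237 members overlapped another gene model, as did that of 11 of the 80 other abundant genes. In 12 of the 17 members the overlap was with a model on the other strand. Whether the counting used strand is not stated, so the counts of these 17 may hold fragments of their partners. The same holds for near-identical gene copies, which could not be looked for without sequence.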

How the data were processed

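Per the labels' protocols, RNA was extracted from frozen endocarp with Trizol, enriched for poly(A) and made into Illumina libraries. Aligner, counter, strandedness, genome build and annotation: not given in the sources used here. Per the file headers, the authors deposited raw fragment counts, a scaled count and FPKM for each gene. This scaled count, a signal deposited by the authors, was in the members the raw count times 1.06 and 1.05 for Dahongtiancheng and Bingtangcheng at 70 days and 0.900 or 0.901 and 0.988 at 50 days. It was used for this check only.

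A header line recurring 1 time in each file was dropped. Levels were counts divided by the library total, times 1000000, plus 0.5 (CPM + 0.5). Of the identifiers, 0 matched the 29331 genes of the NCBI table for assembly DVS_A1.0, so lists by gene role could not be filled. TMM (edgeR 4.0.16) and median-of-ratios (DESeq2 1.42.0) factors in R 4.3.3 and the deposited FPKM served as alternatives. TMM factors were 0.927 and 0.910 at 70 days and 1.07 and 1.11 at 50 days. Ratio intervals are exact conditional 95% counting intervals of CPM. With 1 library per group no test was made. Scripts were tested on simulated data.

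The members and the rules behind all comparisons were chosen with earlier results of these data known. Named genes were the 6 most abundant members, the 6 with the smallest range, the 3 longest and 3 shortest, the 2 nearest pairs, and 3 on either side of each limit. Other genes were chosen after their values were seen.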

Additional observations from a re-analysis of the deposited data

Results flagged for a closer look

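Among the named genes, 5 had a stage ratio whose 95% counting interval lay below 1 in Dahongtiancheng and above 1 in Bingtangcheng. With 1 library per group the difference between the cultivars was not tested. Cs9g14320 had a log2 ratio of 70 over 50 days of -0.98 in Dahongtiancheng and 0.38 in Bingtangcheng, and Cs3g18550 had -0.65 and 0.54. With TMM scaling both genes kept these directions, at -0.77 and 0.66 for Cs9g14320 and -0.45 and 0.82 for Cs3g18550. Cs1g05000 had -0.10 and 0.32, and orange1.1t02860 had -0.12 and 0.18. Cs2g09620, which lay just outside the floor, had -0.20 and 0.19. In these 3 genes the Dahongtiancheng ratio turned positive with TMM, at 0.10, 0.08 and 0.01.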

How the results depend on the processing

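No paired analysis was possible because each group has 1 library. The number of members stayed within 1.5 times 237 with TMM (209), median-of-ratios factors (201), FPKM for the range (208), 0 or 2 added to CPM (237 and 240), a limit of 3 (301) and Citrus_newGene models allowed (237). It was 144 with a limit of 1.5, 1418 with a floor of 100 and 10114 with only 10 fragments asked for in every library. Without 1 library it ran from 247 to 318. Of the members, 209, 204 and 199 stayed under 2-fold with TMM, median-of-ratios factors and FPKM. In that order, the median log2 ratio of 70 over 50 days was 0.24, 0.26 and 0.25 in Dahongtiancheng and 0.47, 0.49 and 0.51 in Bingtangcheng. That of Dahongtiancheng over Bingtangcheng was -0.087, -0.076 and -0.070 at 70 days and 0.13, 0.14 and 0.16 at 50 days. No median changed sign. Members with both 70-day libraries above both 50-day libraries numbered 159, 164 and 164, and below 14, 14 and 11. Those with both Dahongtiancheng libraries above both Bingtangcheng libraries numbered 11 under each of the 3, and below 12, 8 and 6. Without the 100 most abundant genes of each library, the members held 12.2% and 12.3% of the fragments in Dahongtiancheng and Bingtangcheng at 70 days and 10.4% and 9.94% at 50 days. With a floor of 100 the median length was 2401 bases in steady genes and 1773 in the others. The share that kept to the rule in the library left out was, with TMM, 75.5% and 88.9% in Dahongtiancheng and Bingtangcheng at 70 days and 94.1% and 77.4% at 50 days. With a limit of 1.5 it was 55.6%, 79.6%, 90.6% and 77.0% in the same order. The cause of these shifts was not tested. Of 27 named members, 22 had a larger range with each of TMM, median-of-ratios factors and FPKM, and 5 reached 2-fold or more. Depth did not limit the ranges, whose intervals were narrow, but 1 library per group leaves the spread between fruits unknown.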
